A study of Mus musculus with 9 samples.

Results

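Nascent RNA of mouse CD8+ T cells kept under chronic stimulation was compared with and without inhibition of MEK, a kinase of the RAS-RAF-MEK-ERK cascade. The comparison used the 3 libraries labelled Chronic and the 3 labelled ChronicMEKi, which are 6 of the 9 libraries of the series. They were chosen by their labels, and no measured value entered the choice. The 3 libraries labelled Acute, from CD8+ T cells under acute stimulation, are given beside the comparison where they help to read a level. They also entered the filter on low signal, the scaling and the estimate of spread shared by all 9 libraries, and so bear on every limma p-value. All groups are CD8+ T cells fed 5-ethynyl uridine, a uridine analogue that enters newly made RNA, at 0.2 mM for 30 minutes before the labelled RNA was captured and sequenced. The inhibitor, its dose, the manner and length of stimulation, and the strain, genotype and age of the mice are not given in the sources used here. The labels do not say whether the replicates came from separate mice or cultures, so the p-values measure the spread between these libraries, which may be technical. The question is which genes and pathways depend on MEK while CD8+ T cells are chronically stimulated, the setting in which they become exhausted.

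In a T cell, engagement of the antigen receptor loads the small G protein RAS with GTP through the exchange factors SOS and RASGRP. RAS activates RAF kinases, RAF phosphorylates MEK, and MEK phosphorylates ERK, which acts on ETS-family and AP-1 factors and so switches on immediate early genes. The same cascade induces its own brakes: dual-specificity phosphatases that inactivate ERK, and Sprouty and Spred proteins that act on RAS and RAF. Exhaustion is the state of reduced function, sustained inhibitory receptors and altered metabolism that CD8+ T cells enter when antigen persists.

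The deposited values are signal summed over the body of each transcript and, in a second table, over the pause region near its start. Depth in reads is unknown, so no counting error can be given. Pearson correlations of log2 gene-body signal ran from 0.959 to 0.976 between libraries of a group and from 0.939 to 0.953 between chronic and MEK-inhibited libraries; they run over genes, which are no replicates of a condition. A ribosomal RNA-like locus of 4 rows, left out of all that follows, took 37.0% ± 3.30 (SD, n = 3) of the gene-body signal in chronic libraries and 31.6% ± 3.92 in MEK-inhibited ones (two-sided exact permutation p = 0.3; the smallest p that 3 against 3 libraries allow is 0.1). All 10 CD8+ T cell markers passed the filter on low signal, and their summed signal ran from 30892 to 33400 in chronic and from 38473 to 44003 in MEK-inhibited libraries. Of 4 CD4 and regulatory T cell markers, the 3 in the tables were tested and all were called. Their summed signal, from 116487 to 145426 in chronic and from 103193 to 112634 in MEK-inhibited libraries, was higher than that of the CD8+ list and was almost wholly that of Il2ra, which activated CD8+ T cells express too. Cd4, the coreceptor of helper cells, had 346, 215 and 147 against 142, 101 and 100.4 and fell (-0.95), but was called neither without chronic replicate 1 or 2, MEK-inhibited replicate 2 or 3 nor without any of the acute replicates (limma adjusted p up to 0.208). Zbtb7b, a factor of the CD4 lineage, rose by 0.78. Of 5 gamma-delta T cell markers, 2 were tested, and Trdc rose from 208, 310 and 148 to 401, 332 and 424 (0.84); it overlaps a gene on the other strand and was not called without chronic replicate 1 or 3 or MEK-inhibited replicate 1, 2 or 3 (limma adjusted p up to 0.174). The part of such cells in the results below was not tested. Erythroid markers (0 of 6) did not pass, 4 of 8 B cell and 4 of 11 myeloid markers did, and no marker of either type was called. The summed myeloid markers ran from 264 to 285 and from 179.7 to 401. In bulk libraries, fewer cells of a type and less RNA per cell cannot be told apart.

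MEK inhibition moved nascent transcription in both directions. Of 15938 genes tested in the gene body, 1330 (8.34%) were higher and 1302 (8.17%) lower in MEK-inhibited than in chronic libraries at a limma adjusted p under 0.05, the rule by which a gene is said here to rise, fall or be called. Of these, 454 rose and 453 fell by more than 1 on the log2 scale, 75 and 135 by more than 2, and 12 and 40 by more than 3. All log2 differences are of signal plus 5, MEK-inhibited minus chronic, which understates changes of weak genes. In 1321 of the genes that rose and 1275 of those that fell, the libraries of the 2 groups did not overlap. Among all genes tested, the MEK-inhibited libraries lay wholly above the chronic ones in 15.6% and wholly below in 15.8%. The calls were made on the same libraries, so the counts among called genes describe them and are no separate support. A gene with signal in only 1 group passes the filter through that group, so counts in lists where many members were not tested are a description. The median gene did not move by more than 0.002, because scaling sets the bulk of genes level. On the deposited scale it moved by 0.165 and the balance was 1979 higher to 721 lower, so a direction is relative to the other genes and not to RNA per cell. Among the genes said here to fall, Acaca, Acly, Ldha, Hk2, Slc2a1, Entpd1, Ets2, Fh1, Dlst, Hspa9, Timm23, Atp5o, Ccne2, Dusp4, Rasa1, Sos1, Il2ra, Tnf, Aim2, Npm1, Bcl2l2, Rgs11 and Cd4 were not called on that scale, and Tox, not called here, was higher. Of the 37018 genes in the tables, 49.3% overlap another gene, and the use of strand in counting is not given in the sources used here. Of 323 genes named in the text or by the naming rule, 165 overlap another gene, so part of their signal may be a neighbour's. Among the genes described below Dusp6, Etv5, Il13, Ccl3, Ccl4, Havcr2, Kit, Spred1 and Prdm1 overlap none. Those that do include Tagap, Lcp2, Ctsw, Ctla4, Slamf6, B2m, Tap1 and Psmb9. Further examples are Tcf7, Zeb2, Adcy5, Ltb, Csf2, Dusp5, Spry4, Rasgrp2 and Hmgcs1.

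**Figure D1:**
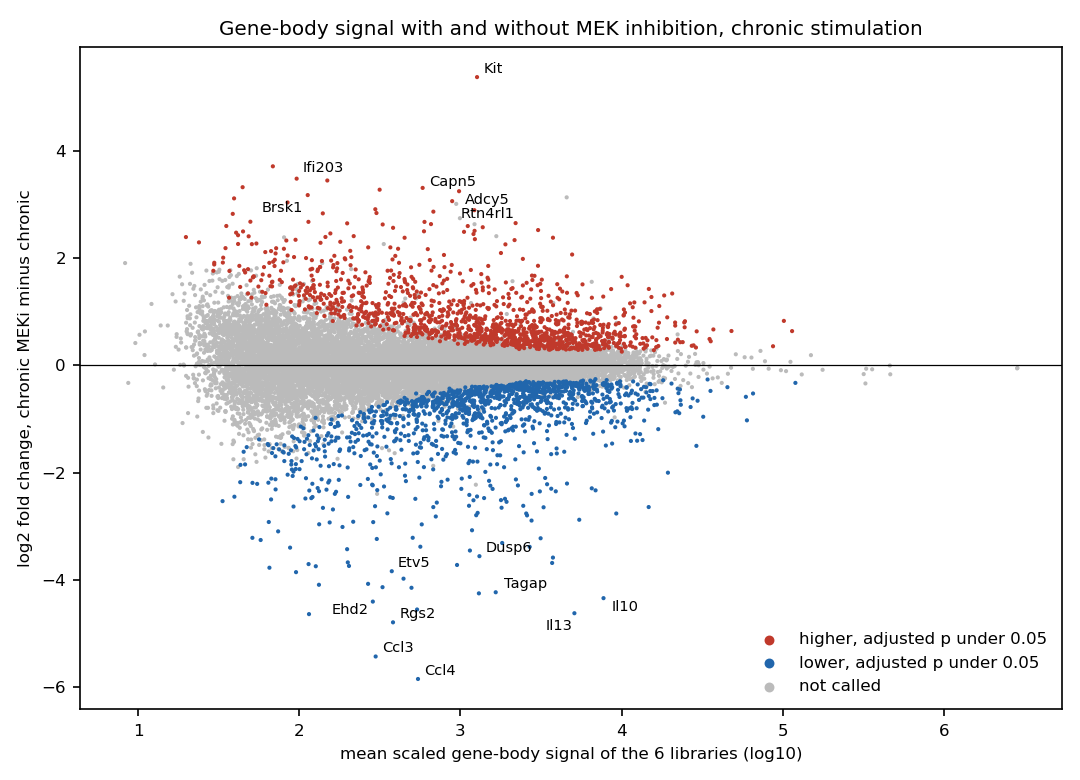
Each point is 1 of 15938 genes, with the mean scaled gene-body signal of the 6 libraries on a log10 axis and the log2 fold change, MEK-inhibited minus chronic, on the vertical axis; coloured points have a limma adjusted p under 0.05. Kit lies alone at the top (5.37) and the chemokine genes Ccl4 (-5.85) and Ccl3 (-5.43) at the bottom, and 40 genes fell by more than 3 where 12 rose as far.

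Most of the measured brakes of the cascade fell. Among 20 ERK feedback inhibitors, 18 could be tested, 13 fell and none rose, with a median log2 difference of -0.62. Dusp6, the phosphatase specific to ERK (chr10:99263231-99267489), had a signal of 2394, 2321 and 2545 in the chronic libraries and 212, 199 and 191 in the MEK-inhibited ones. The groups were far apart, and the acute libraries, at 2183, 2617 and 2749.6, lay with the chronic ones. The difference was -3.56 ± 0.137 (SE; adjusted p = 3.25e-12). Spred1, which holds back RAF activation through the RAS-inactivating protein neurofibromin, went from 2128, 2012 and 1696 to 280.5, 369 and 291. Its difference was -2.62 ± 0.16. Spry4, a Sprouty protein, was weak throughout, at 123, 121 and 99.9 against 5.64, 34.9 and 4.14, and fell by 2.92 (by 1.37 with a pseudocount of 50). Spry2 fell by 1.46 from 716, 823 and 1424 to 297, 374 and 349. Dusp16, a phosphatase that prefers JNK and p38, fell by 1.75. The nuclear ERK phosphatase Dusp5 fell by 1.39, from 17695, 19719 and 21067 to 7125, 6831 and 8310.2, and its sister Dusp4 by 0.49. The RAS GTPase-activating genes Rasa1, Rasa2, Rasa3 and Nf1 fell by 0.48, 0.87, 0.79 and 0.69. Dusp1 (0.26), Dusp2 (-0.23) and Spry1 (-0.47) were among the 5 tested members not called. The 2 members below the filter, Spred3 and Il17rd, had signals under 52 in all 6 libraries.

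**Figure D2:**
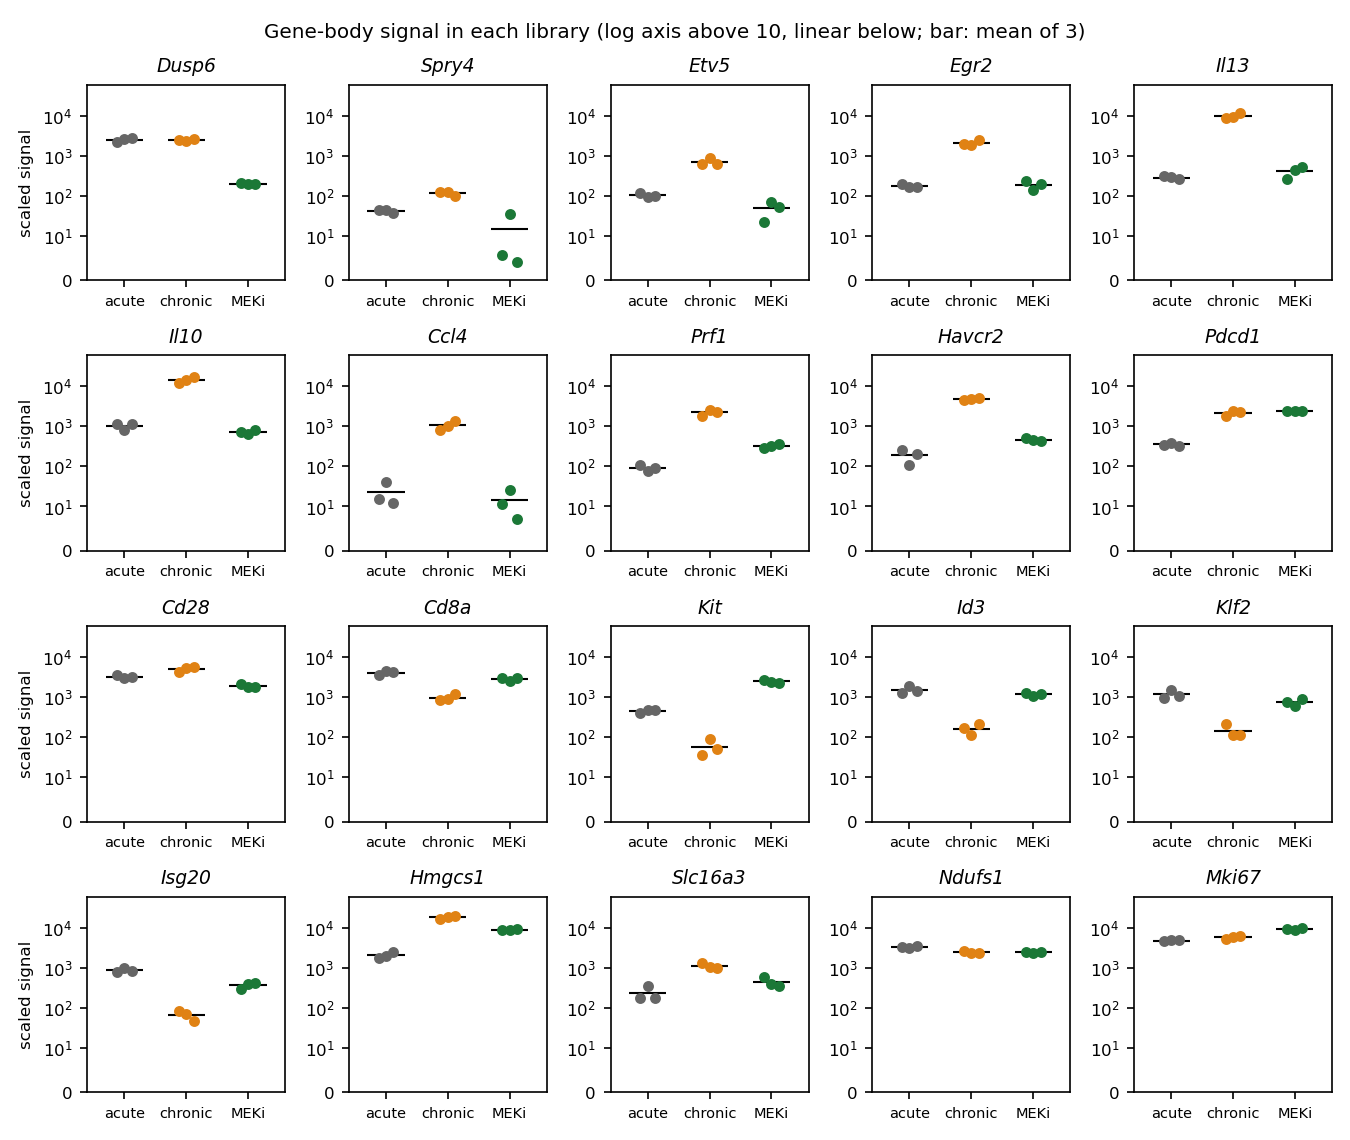
Scaled gene-body signal of 20 genes in each of the 9 libraries, 1 point per library with a bar at the mean of 3, on an axis that is logarithmic above 10 and linear below. The chronic and MEK-inhibited points do not meet for Dusp6, Il13, Il10, Ccl4, Havcr2 or Kit, while those of Ndufs1 (-0.02), a subunit of respiratory complex I, overlap and those of Pdcd1 (0.17) lie close together.

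Immediate early genes moved less evenly. Of 30 immediate early genes, 28 were tested, 11 fell and 2 rose, with a median of -0.30. Egr2, a zinc finger factor induced by antigen receptor signals, had 2001, 1806 and 2488 in chronic and 233, 136 and 201 in MEK-inhibited libraries. Its difference was -3.45 ± 0.226 (adjusted p = 2.60e-09), and the acute libraries had 201, 163 and 166. MEK-inhibited and acute libraries thus overlapped for Egr2. Egr1, a related factor, fell to under the acute libraries: 256, 316 and 256 in chronic, 43.5, 29.2 and 24.8 in MEK-inhibited and 428, 581 and 477 in acute libraries (-2.93 ± 0.297). The AP-1 subunit gene Fosl1 fell from 2328, 2212 and 2300.3 to 591, 609 and 518, a difference of -1.99. Ier3, an early response gene that modulates survival, fell by 1.82, and Ier5, another early response gene, by 1.44. Smaller falls were those of Junb (-0.76), Fosl2 (-0.52), Klf6 (-0.52), Atf3 (-0.89) and Maff (-0.83). Myc, the growth-promoting transcription factor, went from 24417, 28224 and 32231 to 17825, 16051 and 19974 (-0.65 ± 0.147, adjusted p = 0.00589); it was not called without chronic replicate 3 (limma adjusted p up to 0.0969). Fos (-0.41) and Srf (-0.26) were not called. The orphan nuclear receptor gene Nr4a3 rose, from 817, 667 and 703 to 1563, 1439 and 1334 (0.99), and so did Nab1, a corepressor of EGR proteins (0.46), which was not called without MEK-inhibited replicate 3 (limma adjusted p up to 0.0507).

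The Egr2 promoter is shown because it belongs to the immediate early gene with the largest fall. It also holds the sequence to which serum response factor is known to bind. The 150 bases before the RefSeq start (GRCm38.p6, chr10:67537719-67537868, plus strand) read, with the CArG box in capitals:
Egr2: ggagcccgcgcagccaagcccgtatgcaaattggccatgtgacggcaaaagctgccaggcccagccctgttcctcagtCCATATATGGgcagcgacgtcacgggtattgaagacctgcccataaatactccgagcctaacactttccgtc
The CArG box, with only A or T between its ends, was searched on both strands from 250 bases before to 50 bases after each start, and 1.63% of 32817 RefSeq promoters hold it. The match in Egr2 begins 72 bases before the start. A match is a description of the letters and not a measured binding site.

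ETS factors include the classic ERK-induced PEA3 group. Of 18 ETS genes, 13 were tested, 6 fell and 2 rose, with a median of -0.05. Etv5, a PEA3 factor, had 635, 855 and 616 in chronic and 22.6, 68.2 and 52.8 in MEK-inhibited libraries, with 117, 90.8 and 99.1 in acute ones. The difference, -3.84 ± 0.357 (adjusted p = 2.36e-07), was among the 15 largest falls of protein-coding genes that met the naming rule. Etv4, its close relative, fell by 2.50 from 99.8, 129 and 119 to 16.1, 29.2 and 8.28. Etv3 (-0.75), Elk3 (-0.63) and Ets2 (-0.68) fell less, and Elf2 (0.37) and Elk4 (0.32) rose. Ets2 was not called without chronic replicate 2 or 3 or MEK-inhibited replicate 1 or 3 (limma adjusted p up to 0.119), and Elk4 was not called without chronic replicate 2 or MEK-inhibited replicate 1 or 2 (limma adjusted p up to 0.0966). Without chronic replicate 2 or MEK-inhibited replicate 1 the list had 4 falls and 1 rise, without MEK-inhibited replicate 2 it had 5 and 1, and on the deposited scale its median was 0.12.

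In the cascade itself most genes were not called, and more rose than fell. Of 26 genes from RAS exchange factors to ERK effectors, 25 were tested, 9 rose, 1 fell and 15 were not called, with a median of 0.18. Rasgrp2, a RAP1 and RAS exchange factor, had 383, 369 and 199 in chronic and 2408, 1832 and 1466 in MEK-inhibited libraries, a difference of 2.59 ± 0.26. Rasgrp1, the exchange factor that loads RAS after antigen receptor engagement, rose by 0.71 from 18405, 18998 and 18477 to 31800.5, 28415 and 31188. Rras2, a RAS-related gene (0.72), the RAF scaffold Ksr1 (0.73) and Braf (0.43) rose. So did the ERK effector kinases Mknk2 (0.57) and Rps6ka5 (0.51). Sos1, a RAS exchange factor, fell (-0.38). The MEK genes Map2k1 and Map2k2 and the ERK gene Mapk3 were not called. Map2k1 differed by -0.28, Map2k2 by 0.15 and Mapk3 by 0.02, and the 95% intervals were -0.58 to 0.03, -0.12 to 0.42 and -0.70 to 0.74. Map2k1 was called without chronic replicate 3 (limma adjusted p = 0.00615).

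Among all genes tested, with the pseudocount of 5, the 2 largest falls were those of the chemokine genes Ccl4 and Ccl3. Of 13 chemokine genes only 4 were tested, 2 fell and none rose. The others were Ccl1 (-0.09) and Cxcl16 (1.26), and without chronic replicate 3 there was 1 rise. Ccl4 (chr11:83662584-83664683) and Ccl3 (chr11:83647844-83649355), neighbours that encode inflammatory chemokines, had 827, 1019 and 1380.4 and 450.4, 569.9 and 738 in the chronic libraries. With MEK inhibited they had 11.3, 26.0 and 7.25 and 4.84, 6.50 and 16.6, all under the filter's minimum of 50, and in acute libraries 15.3, 40.4 and 12.1 and 1.27, 34.3 and 10.1. The log2 differences were -5.85 ± 0.481 and -5.43 ± 0.624 (adjusted p = 4.52e-08 and 3.43e-06). So close to 0 the size depends on the pseudocount: with 0.5 and 50 in place of 5, Ccl4 differed by -6.29 and -4.10 and Ccl3 by -6.06 and -3.40. Ccl5, encoding a related chemokine, did not pass the filter, with signals under 45 in all 6 libraries.

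Of 27 cytokine genes, 20 were tested, 10 fell and 6 rose, with a median of -0.72. Il13, a type 2 cytokine gene (chr11:53631324-53634702), had 8559, 9390.0 and 11352 in chronic, 261, 436 and 516 in MEK-inhibited and 305, 289 and 257 in acute libraries. The difference of -4.62 ± 0.201 (adjusted p = 4.84e-11) left MEK-inhibited libraries close to the acute ones. Il10, which encodes an immunosuppressive cytokine (chr1:131019845-131024974), fell by 4.34 ± 0.154, from 12025, 14450.1 and 17623 to 718, 634 and 793. Csf2, encoding GM-CSF, fell by 3.58 from 5695, 6881 and 8182 to 505, 639 and 561. Penk, the gene of the opioid precursor proenkephalin, fell from 539, 559 and 781 to 25.8, 37.4 and 29.0 (-4.14); it overlaps another gene on the other strand, and the use of strand is not stated. Il24, an IL-10 family gene, fell by 2.64, Il4 by 1.65 and Csf1, encoding M-CSF, by 1.52. Ifng, encoding interferon gamma, fell less far, by 1.26, from 1483, 1867 and 2190.1 to 680.3, 730.3 and 881. Tnf had 6000.0, 6833 and 8141 against 5188, 4531 and 5515 (-0.45 ± 0.137, adjusted p = 0.0296), and it was not called without chronic replicate 2 or 3 or MEK-inhibited replicate 1 or 2 (limma adjusted p up to 0.13).

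The 6 cytokine genes that rose were Ltb, Tnfsf11, Lif, Osm, Lta and Tnfsf8. Ltb, the membrane subunit of lymphotoxin, went from 290.4, 409 and 253 to 1672, 1515 and 2171, a difference of 2.49 ± 0.194, and stayed under the acute libraries (3712, 5834 and 4329.7). Lif and Osm, IL-6 family cytokines, rose from 14024, 15317 and 17706 to 26883, 25446 and 29175 and from 11310.2, 11641 and 14514 to 21654, 20221 and 22733 (0.80 and 0.79). Tnfsf11, encoding RANKL, rose by 0.87. Il2 did not pass the filter, with signals under 10 in all 6 libraries.

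The promoter of Il13 is printed because it is the cytokine gene with the largest fall. It lies on the minus strand (GRCm38.p6, chr11:53634703-53634852) and reads, with an NF-kB motif in capitals that holds an NFAT motif inside it:
Il13: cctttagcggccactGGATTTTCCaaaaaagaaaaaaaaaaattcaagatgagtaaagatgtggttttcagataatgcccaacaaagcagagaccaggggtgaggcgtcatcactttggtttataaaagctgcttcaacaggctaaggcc
The NF-kB motif was searched as GGANTTTCC and the NFAT motif as GGAAAAT, on both strands. They are in 1.26% and 4.82% of RefSeq promoters. The first begins 135 bases before the start and the second, on the other strand, 133 bases before it.

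Genes of the killing machinery fell in part. Of 19 cytotoxic effector genes, 15 were tested, 6 fell and 1 rose, with a median of -0.23. Prf1, encoding perforin, the pore-forming protein, had 1800.3, 2561 and 2330.2 in chronic, 286, 333 and 355 in MEK-inhibited and 109, 76.0 and 89.7 in acute libraries. It fell by 2.75 ± 0.214 (adjusted p = 2.22e-08). Serpinb9, an inhibitor of granzyme B that protects the killer cell, fell by 2.89 from 3792, 4917 and 5908 to 684, 549 and 699. Its relative Serpinb6b fell by 4.25, from 2214, 2324 and 2885 to 126, 154 and 99.4. Crtam, an adhesion receptor of activated killer cells, and Srgn, the granule proteoglycan, fell by 1.78 and 1.12. Granzymes did not follow as a group: Gzmb differed by -0.22 (95% interval -0.47 to 0.04) and was not called. Gzmc fell (-1.87, adjusted p = 0.0183) but was not called without chronic replicate 2 or 3 or MEK-inhibited replicate 2 or 3 (limma adjusted p up to 0.121). Ctsw, a cysteine protease of killer cells, rose from 732, 587 and 828 to 2674, 1944 and 2067 (1.63).

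Killer cell lectin-like receptors, which killer cells use to read MHC class I and stress ligands, could be tested only in part. Of 17 genes, 7 passed the filter, 6 fell, none rose and 1 was not called, with a median of -1.84. Klrc1, encoding the inhibitory receptor NKG2A, had 872, 892 and 1068 in chronic and 61.3, 47.9 and 38.3 in MEK-inhibited libraries (-4.15 ± 0.286). Klrc2, encoding its activating relative NKG2C, went from 386, 416 and 323 to 29.8, 16.2 and 30.0 (-3.67), and Klrd1, encoding their partner CD94, from 1216, 1410.2 and 1445 to 344, 263 and 313 (-2.13). Klrk1, encoding the activating receptor NKG2D, fell by 1.09 and Klre1 by 1.84. The summed signal of 6 NK cell markers ran from 1096 to 1969.6 in chronic and from 1688 to 1747 in MEK-inhibited libraries, and the defining marker Ncr1 was under 4 in all 6.

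Inhibitory receptors split. Of 20 genes for inhibitory receptors, their ligands and adenosine-making ectoenzymes, 19 were tested, 6 fell and 6 rose, with a median of 0.17. Havcr2, encoding TIM-3, a marker of terminal exhaustion, had 4678, 4883 and 5152 in chronic, 508, 449 and 439.9 in MEK-inhibited and 259, 107 and 204 in acute libraries. The groups were far apart, and the difference was -3.38 ± 0.233 (adjusted p = 1.28e-08). The PD-1 ligand genes Pdcd1lg2 and Cd274 fell by 1.68 and 1.08, Tigit by 0.90, from 743, 920.3 and 695 to 428, 467 and 356, and Entpd1, encoding the ATP-degrading ectoenzyme CD39, by 0.47. Ctla4, a competitor of CD28, rose from 843, 922 and 1196 to 3746, 3542 and 4372 (1.98 ± 0.135), overlapping the acute libraries (3727, 3232 and 4028). Nt5e, encoding the adenosine-producing ectoenzyme CD73, rose by 1.29 and the adenosine receptor gene Adora2a by 1.37, from 263, 318 and 308 to 824, 717 and 784. Vsir, encoding VISTA, rose by 1.29, Cd160 by 1.11 and the IL-10 receptor gene Il10ra by 1.04. Pdcd1, encoding PD-1, was not called: 1828, 2366 and 2231 against 2388, 2400.4 and 2383, a difference of 0.17 with a 95% interval of -0.11 to 0.45. Its MEK-inhibited libraries lay just above all chronic ones. Lag3 was likewise not called, at 776, 1094 and 1012 against 1224, 753 and 975 (0.02, interval -0.41 to 0.45). The sign of that small difference changed without MEK-inhibited replicate 1 (-0.15) or chronic replicate 1 (-0.09). Cd38 (0.57) was not called.

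Costimulatory receptors split too, with 5 falls and 3 rises among 14 tested of 15 (median 0.06). Cd28, whose signal joins that of the antigen receptor, went from 4145, 5287 and 5629 to 2124, 1792 and 1842 (-1.38 ± 0.122). Tnfrsf9, encoding 4-1BB, fell by 1.19, from 23294, 24120.2 and 22845 to 10625, 10036 and 10110.1, Icos by 0.88, Tnfrsf8, encoding CD30, by 0.86 and Cd226 by 0.58. The tumour necrosis factor receptor gene Tnfrsf1b (0.97), Tnfrsf14 (0.98) and Tnfrsf18, encoding GITR (0.65), rose. Cd27 (0.24) and Tnfrsf4, encoding OX40 (0.18), were not called.

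Transcription factors of effector and exhausted T cells were all measurable: 29 of 29 were tested, 11 fell and 9 rose, with a median of -0.15. Prdm1, encoding BLIMP-1, a factor of terminal differentiation, had 2006, 2727 and 2481 in chronic, 603, 695 and 679 in MEK-inhibited and 327, 343 and 339.7 in acute libraries, a difference of -1.85 ± 0.156. Irf4 and Batf, partners on composite elements downstream of the antigen receptor, fell by 1.50 and 1.51. Irf4 went from 39771, 42163 and 46897 to 15149, 15001 and 15211, and Batf from 3817, 3407 and 3019 to 1327, 1236 and 1034. Zeb2, a transcriptional repressor active in terminal effector cells, fell by 1.93, Id2 by 1.27, Maf by 1.14, Gata3 by 0.89 and Bhlhe40 by 0.82. Tbx21, encoding the effector factor T-bet, rose from 4788, 4794 and 4407 to 13516, 11057 and 13001 (1.42 ± 0.101), above the acute libraries (5074, 6119 and 5622). The Ikaros family genes Ikzf2 and Ikzf3 rose by 1.28 and 1.04, Irf8 by 1.08, and Nfatc1 and Runx2 by 0.76 and 0.52. Tox, the factor that sets up the exhausted state, had 341, 377 and 399 against 505, 464 and 585 and was not called (0.47, 95% interval 0.09 to 0.85). Eomes (0.18) was not called.

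Genes of stem-like and memory T cells mostly rose. All 26 were tested, 15 rose and 6 fell, with a median of 0.46. Tcf7, encoding TCF-1, which defines stem-like exhausted cells, had 429, 387 and 368 in chronic, 1332, 1057 and 1059.9 in MEK-inhibited and 1398, 1943 and 1561 in acute libraries (1.53 ± 0.161, adjusted p = 1.16e-06). Id3, an inhibitor of E proteins linked with the same cells, rose from 170.2, 113 and 210.2 to 1258, 1088 and 1234 (2.86 ± 0.21). Klf2, a quiescence factor that drives lymph node homing, rose from 209, 116 and 110.3 to 773, 586 and 907 (2.38). S1pr1 and Ccr7, receptors for leaving and entering lymph nodes, rose by 1.31 and 1.19, and Foxo1, which activates such genes, by 1.17. Slamf6 rose by 1.29, from 180.4, 199 and 70.1 to 373, 367 and 289, far under the acute libraries (2579.6, 2748 and 2563). The genes that fell are held to mark the same cells. Il7r, the IL-7 receptor, fell from 12141, 12767 and 13123 to 6396, 6231 and 5749.6 (-1.05 ± 0.0895), and Il6ra, an IL-6 receptor chain, by 1.80. The factors Satb1 (-1.03), Lef1 (-0.71) and Bach2 (-0.60) fell as well.

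Among 31 homing receptors and integrins, 26 were tested, 10 fell and 5 rose (median -0.28). Cdh17, a cadherin, fell from 919, 1061 and 1091 to 78.2, 70.7 and 8.28 (-4.55), while Cdh1, E-cadherin, rose from 11.3, 25.5 and 9.19 to 174, 166 and 122 (3.03, or 1.64 with a pseudocount of 50) and stayed under the acute libraries (950.1, 1216 and 931). Cxcr6, a receptor of tissue-dwelling T cells, fell by 2.97 and Cxcr4 rose by 1.83, from 211, 199 and 233 to 795, 695 and 830.1. Ccr2 (-2.19), the integrin genes Itgb3 (-1.58) and Itga2 (-1.53), and the activation marker Cd69 (-1.31) fell. The integrin genes Itga6 (1.61) and Itgb7 (1.49) rose.

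The antigen receptor pathway upstream of MEK showed 12 rises and 9 falls among 40 tested of 40, with a median of 0.12. Cd8a, the coreceptor chain, rose from 837, 905 and 1197 to 3016, 2469 and 3045 (1.54 ± 0.137) and Cd8b1 by 0.69. Lcp2, encoding the adaptor SLP-76, fell from 11711, 11695 and 11891 to 4384, 4172 and 3958 (-1.50 ± 0.0855). Orai1, the calcium channel, fell by 1.05, and Cblb, a ubiquitin ligase that dampens the pathway, by 0.78. Plcg1, the phospholipase of the pathway, and the calcineurin subunit gene Ppp3cb rose by 0.67 and 0.71. The proximal kinase gene Lck (0.13) and the adaptor gene Lat (0.19) were not called.

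Of 17 NF-kB subunit and feedback genes, all tested, 6 fell and 3 rose (median -0.26). Without chronic replicate 2 or MEK-inhibited replicate 1 or 3 only 1 rose. The subunit genes Rel (-0.25) and Relb (-0.26) were not called. Falls were found among the targets: Cd83, a surface marker of activation, went from 997, 1129 and 965 to 68.5, 94.2 and 128 (-3.38 ± 0.297), and Tnfaip3, encoding the brake A20, from 1482, 2128 and 1939.7 to 440.1, 353 and 506 (-2.08 ± 0.184). Traf1 (-1.09), Birc3 (-0.77) and the inhibitor gene Nfkbia (-0.71) fell, and Bcl3, an atypical inhibitor, rose from 2279, 2100.2 and 1831 to 6170.2, 5525 and 5981 (1.51). The other rises, of the adhesion gene Icam1 (0.39) and the atypical inhibitor gene Nfkbiz (0.30), were small. Icam1 was not called without chronic replicate 1 or 2 or MEK-inhibited replicate 1, 2 or 3 (limma adjusted p up to 0.151), nor Nfkbiz without chronic replicate 2 or 3 or MEK-inhibited replicate 1 or 3 (limma adjusted p up to 0.172). The Tnfaip3 promoter (GRCm38.p6, chr10:19015411-19015560, minus strand) is shown because it holds both an AP-1 and an NF-kB motif, in that order, in capitals:
Tnfaip3: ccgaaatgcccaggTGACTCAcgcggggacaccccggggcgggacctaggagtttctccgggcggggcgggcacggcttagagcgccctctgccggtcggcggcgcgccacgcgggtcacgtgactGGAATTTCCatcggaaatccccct
AP-1 was searched as TGANTCA on both strands and is in 7.81% of RefSeq promoters. The 2 motifs begin 136 and 24 bases before the start.

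Cytokine receptors and their STAT5 arm rose in part, with 10 rises and 3 falls among 22 tested of 22 (median 0.28). Il18r1, a receptor chain for IL-18, had 95.3, 103 and 122 in chronic and 776, 569 and 626 in MEK-inhibited libraries (2.56 ± 0.207). Ifngr2, a chain of the interferon gamma receptor, rose from 399, 387 and 403 to 2291, 2203 and 1686 (2.35 ± 0.146), under the acute libraries (2522, 3183 and 2444). Il21r (0.82), Il2rb (0.64), the kinase gene Pim1 (0.80) and the feedback gene Socs2 (0.65) rose. Pim3, a relative of Pim1, fell by 0.59. It was not called without chronic replicate 2 or 3 or MEK-inhibited replicate 1 or 2 (limma adjusted p up to 0.108). Without the intensity trend and robust moderation the list had 8 rises and no fall, and without chronic replicate 2 or MEK-inhibited replicate 2 it had 1 fall. Il2ra, the high-affinity IL-2 receptor chain, fell (-0.33, adjusted p = 0.0242) and was not called without chronic replicate 1 or 2 or MEK-inhibited replicate 2 or 3 or acute replicate 1 or 3 (limma adjusted p up to 0.137).

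Of 32 genes of the type I interferon response, 23 were tested, 13 rose, none fell and 10 were not called, with a median of 0.63. Without the intensity trend and robust moderation, or with no filter on low values, 8 rose, and without MEK-inhibited replicate 1, 9 rose and 1 fell. Isg20, an exonuclease gene, had 82.8, 69.1 and 47.1 in chronic, 293, 400.5 and 413 in MEK-inhibited and 804, 991 and 822 in acute libraries (2.41 ± 0.256, adjusted p = 1.33e-06). Zbp1, a nucleic acid sensor, rose from 179, 209.8 and 287 to 784, 723 and 525 (1.57), and Ifit2 from 961, 819.7 and 760.3 to 2336, 2042 and 2079 (1.34). Classic members such as Isg15, Rsad2 and Oas1a did not pass the filter. The Ifi200 family of DNA sensors had 5 rises and 1 fall among 8 tested of 14 (median 1.59): Ifi203 rose from 21.6, 10.9 and 5.74 to 183, 162 and 195 (3.48), and the DNA sensor Aim2 fell by 0.36 but was not called without chronic replicate 1 or 2 or MEK-inhibited replicate 1, 2 or 3 or acute replicate 1 or 3 (limma adjusted p up to 0.162). Of 11 guanylate-binding protein genes, 10 were tested, 4 rose and none fell, led by Gbp10 (1.66) and Gbp2 (1.61). Iigp1, an immunity-related GTPase, rose from 1259, 1208 and 1151 to 6275, 6262 and 6313 (2.38 ± 0.0922).

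Most MHC class I genes and genes of the machinery that loads them rose. All 20 were tested, 15 rose and none fell, with a median of 0.72; 1 fell without acute replicate 2, chronic replicate 1 or MEK-inhibited replicate 3. H2-K1 and H2-D1, the classical heavy chain genes, rose by 0.79 and 0.60, and B2m, their light chain, by 0.66, from 3991, 4363 and 5291 to 7589, 6765 and 7156. The nonclassical genes H2-Q4, H2-Q6 and H2-Q7 rose by 1.41, 1.35 and 1.38; they are near-identical copies among which the counting could split reads, so their separate values are uncertain. Tap1, a subunit of the peptide transporter, rose from 2709, 3408 and 2991 to 6194, 5358 and 6218 (0.97 ± 0.128), and Psmb9, the immunoproteasome subunit transcribed away from it, from 953, 1141 and 1361 to 2212, 1689 and 2288 (0.84). Nlrc5, the transactivator of the class, rose by 0.70. Tap1 and Psmb9 lie head to head on chromosome 17, and the stretch before Tap1, on the side of Psmb9, is shown because both genes rose. On the plus strand (GRCm38.p6, chr17:34187406-34187555), ending at the base before the Tap1 start, with the NFAT motif GGAAAAT in capitals 40 bases before it, it reads:
Tap1: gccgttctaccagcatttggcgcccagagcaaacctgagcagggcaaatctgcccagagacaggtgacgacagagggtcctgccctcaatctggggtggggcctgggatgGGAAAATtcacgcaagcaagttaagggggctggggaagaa

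**Figure D3:**
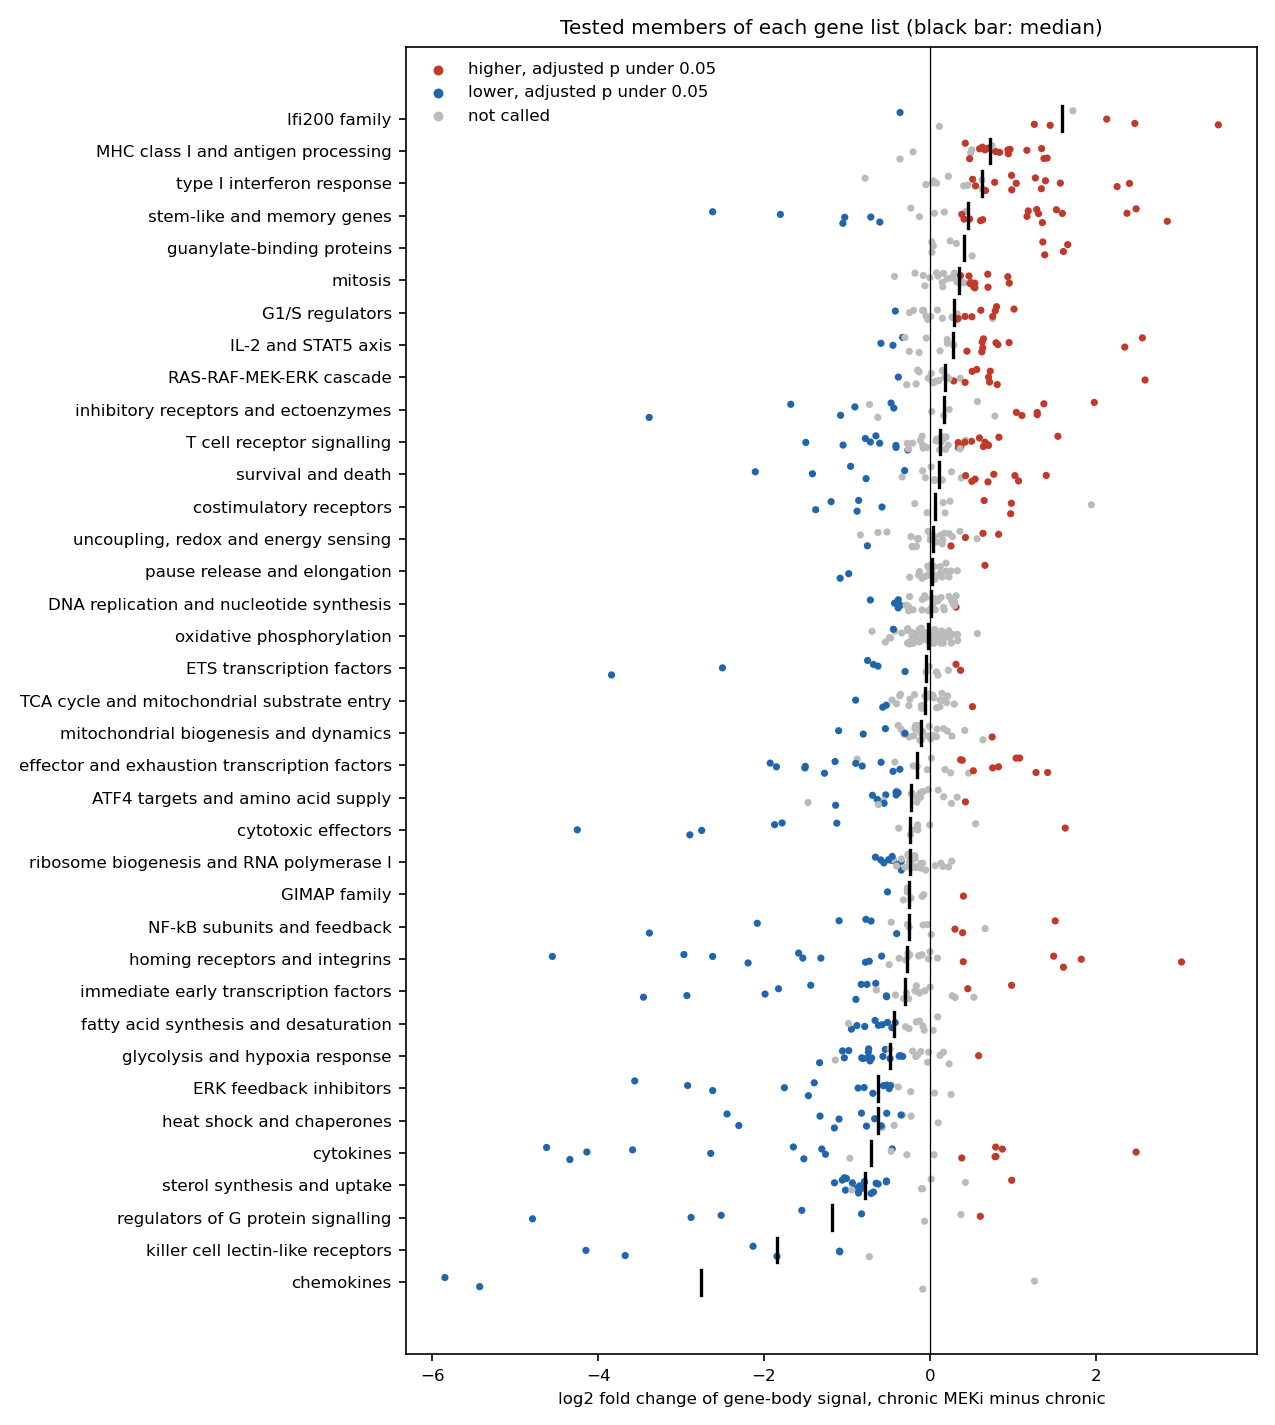
Each point is a tested member of a gene list, placed by its log2 fold change of gene-body signal (MEK-inhibited minus chronic), coloured where the limma adjusted p is under 0.05, with a black bar at the list's median. The medians of lectin-like receptor (-1.84), sterol (-0.79) and heat shock genes (-0.63) lie to the left, those of MHC class I (0.72), type I interferon (0.63) and stem-like genes (0.46) to the right, and that of oxidative phosphorylation genes (-0.02) near 0.

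Genes of lipid and sugar metabolism fell in large part, while almost no gene of oxidative phosphorylation was called. Of 25 genes of sterol synthesis and uptake, all tested, 19 fell and 1 rose, with a median of -0.79. Hmgcs1, which makes the precursor of mevalonate, had 16876, 18414 and 20240.3 in chronic, 8844, 8845 and 9411 in MEK-inhibited and 1766, 1943 and 2502 in acute libraries (-1.03 ± 0.115, adjusted p = 2.31e-06). Stard4, a sterol carrier, fell from 4936, 5201 and 5795 to 2689.7, 2534 and 2418 (-1.06), and Msmo1, an enzyme of cholesterol synthesis, by 1.01. The 1 rise was that of Abcg1, which exports cholesterol, from 394, 701 and 609 to 1207, 1024 and 1072 (0.99). The regulator Srebf2 was not called (-0.09). The MEK-inhibited level of Hmgcs1 thus lay between the chronic and the acute one, and the same held for the other sterol genes named with a fall. Of 18 fatty acid genes tested of 20, 9 fell and none rose (median -0.44): the desaturase genes Fads2, Scd1 and Scd2 fell by 0.95, 0.88 and 0.66, Acaca, the committed step, by 0.42 and Acly, which supplies cytosolic acetyl-CoA, by 0.46. On the deposited scale 6 of them fell.

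The promoter of Hmgcs1 (GRCm38.p6, chr13:119690201-119690350, plus strand) is printed because it holds the element that sterol regulatory element-binding proteins are known to recognise, and, closer to the start, an ETS motif:
Hmgcs1: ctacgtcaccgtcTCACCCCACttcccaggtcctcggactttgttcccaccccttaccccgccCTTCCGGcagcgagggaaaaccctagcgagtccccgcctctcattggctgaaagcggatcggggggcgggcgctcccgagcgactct
The sterol element TCACCCCAC, in capitals first, is in 0.552% of RefSeq promoters on either strand and begins 137 bases before the start. The ETS motif CCGGAAG, read here on the other strand, is in 8.86% and begins 87 bases before it. Promoters printed here were picked among those with a motif. The promoter of Insig1, another sterol gene, held none of the motifs searched. Those of Etv5, Spry2, Spred1, Csf2, Rgs2, Kit and Id3 held none either, and that of Dusp6 held only the NF-kB motif.

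Of 30 symbols for glycolysis and the hypoxia response, matching 29 genes tested, 17 genes fell and 1 rose, with a median of -0.48. Slc16a3, the lactate exporter, had 1289.8, 1076 and 996 in chronic and 603, 389.9 and 362 in MEK-inhibited libraries (-1.33 ± 0.258). Eno1, a glycolytic enzyme gene, fell from 12010.2, 13225 and 16398 to 7029, 6026 and 7194 (-1.03), Pkm by 0.80, Gapdh by 0.70, Ldha by 0.48 and the hexokinase gene Hk2 by 0.36. Hif1a, the oxygen-regulated factor, fell from 19416, 20542 and 19813 to 12053, 11577 and 12096 (-0.74), and P4ha1 and Bnip3, among its targets, by 1.05 and 0.98. Slc2a1, the glucose transporter, fell by 0.37 and was not called without MEK-inhibited replicate 2 or 3 (limma adjusted p up to 0.0679). Pfkp, a phosphofructokinase gene, rose (0.59). On the deposited scale 11 of the list's genes fell.

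Nuclear genes of oxidative phosphorylation were measured nearly in full, and 1 of 75 genes fell and none rose, with a median of -0.02 beside 0.00198 for all genes tested. The 1 call was a gene named Atp5o, of the ATP synthase, a symbol that stands for 2 annotated genes. The one that fell (chr16:91684398-91926982, -0.44, adjusted p = 0.0167) is a long gene that overlaps others on both strands, and the other, which overlaps it, differed by 0.19 and was not called (adjusted p = 0.612). Without chronic replicate 2 or MEK-inhibited replicate 2 or 3 no gene of the list was called, without chronic replicate 1 Atp5o was not, and without acute replicate 2 or 3 there was 1 rise. Ndufs1, of complex I, had 2582, 2399.7 and 2401 against 2453, 2356 and 2490.3 (-0.02, 95% interval -0.22 to 0.19), and Sdha, of complex II, 1848, 1642 and 2153 against 2307, 1939.8 and 2400.2 (0.24, interval -0.03 to 0.50). With 3 libraries a group, true differences anywhere within these intervals remain compatible with the data. Of all genes tested in the gene body, 16.5% were called in either direction. The share called in each list that follows in this paragraph was near that. Of 27 tested genes of the tricarboxylic acid cycle and substrate entry, 3 fell and 1 rose: Pcx, pyruvate carboxylase, fell by 0.90, Fh1 by 0.57 and Dlst by 0.53, and Ogdh rose by 0.51. Without chronic replicate 1, 2 of them rose. Fh1 was not called without chronic replicate 2 or 3 or MEK-inhibited replicate 1 or 2 (limma adjusted p up to 0.167). Among 31 genes of mitochondrial biogenesis and dynamics, 4 fell and 1 rose: the chaperonin genes Hspe1 and Hspd1 fell by 1.10 and 0.80, Hspa9 by 0.54 and the import gene Timm23 by 0.30, and Nrf1, a regulator of respiratory genes, rose from 6193, 6011 and 4368 to 9459.6, 9149 and 8964 (0.75). Timm23 was not called without chronic replicate 2 or 3 or MEK-inhibited replicate 1, 2 or 3 or acute replicate 1, 2 or 3 (limma adjusted p up to 0.134). Without acute replicate 3, 2 of that list rose. Tfam (-0.09) was not called, and Ppargc1a did not pass the filter. Of 28 genes of uncoupling, redox balance and energy sensing, 4 rose and 1 fell: Ucp2, an uncoupling-protein family carrier, fell from 9467, 9079.6 and 10073 to 5999, 5559.6 and 5412 (-0.75), and Gclm, of glutathione synthesis, and Nfe2l2, encoding NRF2, rose by 0.83 and 0.64. Without chronic replicate 2 or MEK-inhibited replicate 1 that list had 2 rises, and without chronic replicate 1 it had 2 falls.

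Biosynthetic lists fell only in part and depended on the scale. Of 40 tested genes of ribosome biogenesis and RNA polymerase I, 10 fell and none rose (median -0.24), among them Rrp12 (-0.59) and Npm1 (-0.47). The falls were 5 without MEK-inhibited replicate 2, there was 1 rise without acute replicate 2 or chronic replicate 1, and on the deposited scale 1 fell and 1 rose. Of 25 tested genes of ATF4 targets and amino acid supply, 8 fell and 1 rose (median -0.22), among them the glutamine transporter gene Slc1a5 (-0.69). Falls of that list numbered 2 without chronic replicate 2 or MEK-inhibited replicate 2, 4 without chronic replicate 3, 5 without MEK-inhibited replicate 3 and 3 on the deposited scale, and without chronic replicate 2 or MEK-inhibited replicate 1 none rose.

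Most of the heat shock genes tested fell: of 18, 16 were tested, 11 fell and none rose, with a median of -0.63. Hspa1a and Hspa1b, the stress-induced HSP70 genes, had 1535, 2413 and 2479.5 and 1809, 2944 and 3167 in chronic libraries and 279.7, 498 and 394 and 413, 617 and 536 in MEK-inhibited ones (-2.45 and -2.30). In acute libraries neither exceeded 57. The copies are near-identical, so reads could be split between them. Hsph1 fell by 1.09, Dnajb4 by 1.32 and Hsp90aa1 by 0.76.

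Genes of mitosis rose in part, and so did regulators of the G1 to S transition, a list that holds inhibitors of that step as well as drivers. Of 30 mitosis genes, all tested, 11 rose and none fell, with a median of 0.35. Mki67, the proliferation marker, had 5376, 5934 and 6153 in chronic and 9596, 8723 and 10029 in MEK-inhibited libraries (0.70 ± 0.0936, adjusted p = 2.14e-05). Kif11, the spindle motor, rose by 0.70, Ccnb2 by 0.94, Cdc25b by 0.96 and Top2a by 0.54. The count of rises was 6 without MEK-inhibited replicate 1. Of 22 tested regulators of the G1 to S transition, 9 rose and 1 fell (median 0.30): the retinoblastoma family genes Rb1 and Rbl2 rose by 1.01 and 0.76, the E2F genes E2f2 and E2f7 by 0.79 and 0.80, and Cdkn1a, encoding the inhibitor p21, by 0.51, whereas the cyclin gene Ccne2 fell (-0.42); without the intensity trend and robust moderation 5 rose and none fell. The D cyclin genes Ccnd1 (-0.25) and Ccnd2 (-0.03) were not called. DNA replication and nucleotide synthesis had 5 falls and 1 rise among 34 tested (median 0.02), a share near the 16.5% called of all genes tested. The list had 1 fall and 7 rises on the deposited scale. It had 5 of each without acute replicate 2, 4 falls and 3 rises without acute replicate 1 or 3 or chronic replicate 3, and 3 falls and 1 rise without chronic replicate 1. It had 3 falls and no rise without chronic replicate 2 or MEK-inhibited replicate 3, 5 falls and no rise without MEK-inhibited replicate 1, and 1 fall and no rise without MEK-inhibited replicate 2.

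Genes of cell death and survival moved both ways. Of 22 tested of 26, 8 rose and 5 fell, with a median of 0.10. Without chronic replicate 2 or MEK-inhibited replicate 2, 3 fell, and Bcl2l2, a survival gene that fell by 0.77, was not called (limma adjusted p up to 0.105). Fas, the death receptor, had 469, 354 and 542 in chronic and 1365, 1128 and 1103 in MEK-inhibited libraries (1.40 ± 0.185). Bbc3, encoding PUMA, rose by 1.07, and Bcl2l11, encoding BIM, a target of ERK-driven degradation, from 1285, 1322 and 1308 to 2258, 2163 and 2272 (0.77). Bax rose by 0.70. Bcl2a1d and Bcl2a1b, near-identical copies, fell by 2.11 and 1.42. Bcl2 (0.15) was not called.

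Regulators of G protein signalling, which shorten the signal of chemokine and other receptors, included deep falls. Of 9, 8 were tested, 5 fell and 1 rose (median -1.18). Without chronic replicate 1 or 2 or MEK-inhibited replicate 1, 3 fell, and without chronic replicate 3, 2 rose. Rgs2 went from 659, 575 and 973 to 6.45, 55.2 and 20.7 (-4.79 ± 0.504), Rgs1 from 7552, 10661 and 10632 to 1286, 1279 and 1293 (-2.88) and Rgs16 from 1649, 1884 and 2635 to 319, 316 and 418 (-2.52), while Rgs3 rose (0.61). Rgs11 fell by 1.54 at an adjusted p of 0.0488 and was called with none of the 6 chronic and MEK-inhibited libraries left out, nor without acute replicate 1 (limma adjusted p up to 0.141). Of 8 GIMAP genes, small GTPases of lymphocyte survival, 1 rose and 1 fell, beside 16.5% called in either direction of all genes tested. For so few genes this is near that share. The fall was not called without acute replicate 2, chronic replicate 2 or 3 or MEK-inhibited replicate 1 or 2, nor on the deposited scale. Without chronic replicate 1, 3 fell. With no filter on low values, or without intensity trend and robust moderation, no gene of the list was called.

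The largest single rise was that of Kit, the receptor for stem cell factor (chr5:75574916-75656722, plus strand). Its signal was 35.2, 88.5 and 51.7 in the chronic libraries and 2747, 2424 and 2253 in the MEK-inhibited ones, and 413, 483 and 468 in the acute ones. MEK-inhibited cells thus exceeded both other groups, with a difference from chronic of 5.37 ± 0.254 (adjusted p = 4.47e-11) and from acute of 2.43. The other 7 genes of the mast cell and basophil list, a lineage that carries KIT, were under 50 in all 6 libraries. Other rises among the 15 largest that met the naming rule were those of Adcy5, an adenylyl cyclase (202, 192 and 157 to 1693, 1934 and 1701, 3.24), Capn5, a calpain (3.31), Fbln2, an extracellular matrix protein (3.44), Brsk1, a kinase (3.17), Rtn4rl1 (3.06), Tmcc3 (2.91), Lsp1, a leukocyte actin-binding protein (2.89), Prrt1 (2.83), Dapk2, a death-associated kinase (2.67), Prr5, a component of mTOR complex 2 (2.65), and Tbxa2r, the thromboxane receptor (2.65). Of the genes just named all but Tmcc3 and Lsp1 also exceeded the acute libraries in every MEK-inhibited library. Further falls were those of Tagap, a GTPase-activating protein of activated T cells (2782, 3262 and 3375 to 214, 110.5 and 179, -4.23), Ehd2 (-4.40), Serpinb9b (-4.09), Selp, P-selectin (-3.98), and Olr1, a receptor for oxidised low-density lipoprotein (-3.86).

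**Figure D4:**
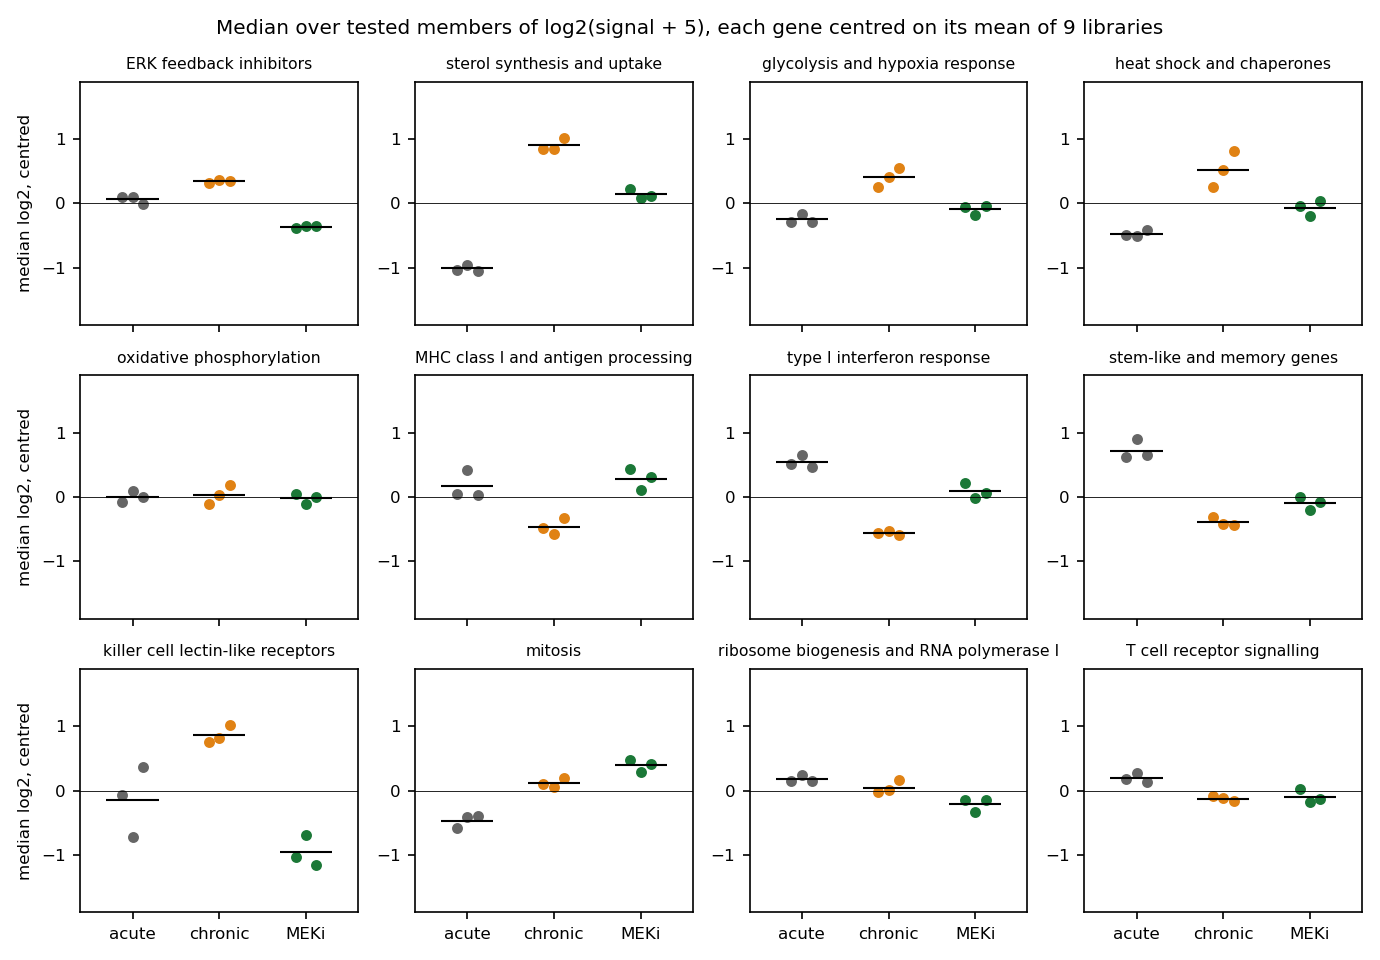
For 12 gene lists, the median over tested members of log2(signal + 5), each gene centred on its mean of 9 libraries, with 1 point per library and a bar at the mean of 3. MEK-inhibited libraries lie below both other groups for ERK feedback inhibitors, between them for sterol, heat shock, type I interferon and stem-like genes, and above both for mitosis.

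The acute libraries place these levels. Any 2 of the comparisons between the 3 groups share 3 libraries, so their values are given side by side and not related by a test. In chronic against acute, 2870 genes (18%) were higher and 2413 (15.1%) lower, and in MEK-inhibited against acute 2068 (13%) and 1923 (12.1%). For sterol genes 22 of 25 were higher in chronic than in acute libraries (median 1.98), and 22 of 25 were higher in MEK-inhibited than in acute ones (median 1.19). ERK feedback inhibitors had medians of 0.17 in chronic and -0.54 in MEK-inhibited libraries, both against acute. For type I interferon genes 17 of 23 were lower in chronic than in acute libraries (median -0.96) and 10 in MEK-inhibited ones (-0.54). For MHC class I the counts were 15 of 20 lower (-0.68), then 5 lower and 2 higher (0.17). Stem-like genes had 18 of 26 lower in chronic (-0.92) and 15 in MEK-inhibited libraries (-0.79), killer cell lectin-like receptors 5 of 7 higher (0.67), then 3 lower (-0.79), and mitosis genes 20 and 23 of 30 higher (0.55 and 0.75).

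The table of pause regions allowed 7674 genes to be tested, and 225 (2.93%) were called, 121 (1.58%) higher and 104 (1.36%) lower. Without MEK-inhibited replicate 1, 2 or 3 the calls were 122, 121 and 104. Of the 1330 genes that rose in the gene body, 691 were tested there, 636 had the same sign and 104 were called in both tables; of the 1302 that fell the numbers were 719, 625 and 93. The 5 largest falls by rule were those of Ccl4 (-5.04), Ccl3 (-4.88), Tagap (-4.83), Csf2 (-4.22) and Il13 (-4.15), all deep falls of the gene body. Il13 had 1986, 2457 and 2962 in chronic and 116, 153 and 130.2 in MEK-inhibited libraries in this region, and Dusp6 220.3, 281 and 245 against 15.5, 34.0 and 14.4 (-3.34 ± 0.325). The largest rises were those of Iigp1 (3.03), Foxn3 (2.82), Retreg1 (2.82), Ltb (2.71) and Elf2 (2.61). For Elf2 the gene-body difference was 0.37.

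**Figure D5:**
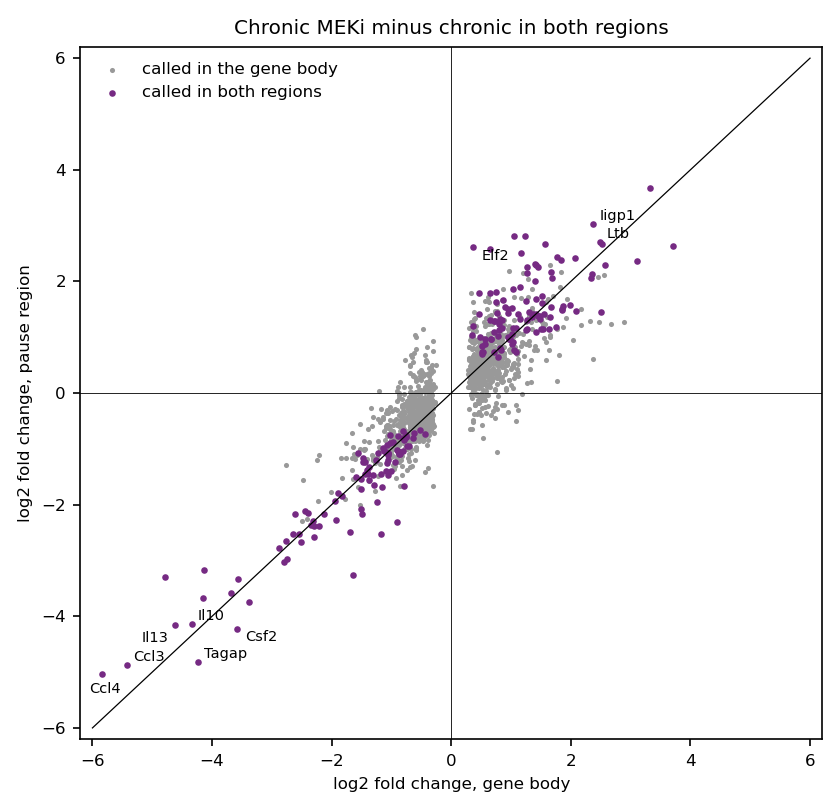
Log2 fold change (MEK-inhibited minus chronic) in the gene body on the horizontal and in the pause region on the vertical axis, for genes called in the gene body and tested in both tables; purple points are called in both and the diagonal marks equality. Both regions share the sign for 636 of 691 genes that rose and 625 of 719 that fell, and Ccl4, Ccl3, Tagap and Il13 lie at the lower left.

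Pausing, the ratio of pause-region to gene-body signal, was tested for 7409 genes and none was called by limma (0%). At an unadjusted limma p under 0.05 there were 399, near the number that this threshold passes when no gene differs. The median pausing index of a library, log2 of that ratio, was -3.64 ± 0.0675 (SD, n = 3) in chronic and -3.60 ± 0.0673 in MEK-inhibited libraries, a difference of 0.0459 (two-sided exact permutation p = 0.5; both library-level tests adjusted together gave 0.5). With 37 genes called at a pseudocount of 50, the count of 0 depends on the pseudocount. Of 25 genes for pause release and elongation, 2 fell and 1 rose: Ell2, an elongation factor, fell by 1.08, Hexim1, which holds the kinase P-TEFb inactive, fell from 978, 1199 and 1276 to 582, 574 and 578 (-0.98), and Larp7, of the same 7SK complex, rose by 0.66 but was not called without MEK-inhibited replicate 1 (limma adjusted p up to 0.0556). Without acute replicate 2, 2 of that list rose. The list's share of calls was not above the 16.5% called in either direction among all genes tested in the gene body.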

How the data were processed

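Nascent RNA of 9 libraries of mouse CD8+ T cells was measured. The main comparison sets 6 of them against each other, and all 9 entered the filter, the scaling and the fit. The authors deposited 2 tables of signal per transcript, for the gene body and for the pause region; how the regions were set and whether strand was used is not given in the sources used here. The submitters' processing notes name FastQC 0.12.0, Trim Galore 0.6.10, STAR 2.7.0a, SAMtools 1.19.2, deepTools 0.1.9, R 4.1.2 and the build mm10, with no role or order. Within a library the deposited signal comes in whole multiples of 1 step, 0.764 to 1.06 depending on the library. Low isolated values pile up at 1, 2, 4 and 8 steps (3756, 4514, 5198 and 2248 values), so a step is not a read, depth is unknown and no count test was run.

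Of 118482 transcript rows, 117346 matched the GENCODE M21 annotation with their version and 383 without; 753 did not. Each of 37022 genes was represented by 1 transcript, that with the highest gene-body mean over the 9 libraries. The 4 ribosomal RNA-like genes Gm26917, Gm42418, AY036118 and CT010467.1 were dropped before scaling. The tables hold chromosomes 1 to 19.

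Scaling between libraries used a trimmed mean without weights, after removing the outer 30% of ratios and the outer 5% of levels at both ends. Genes with a deposited signal, before scaling, of at least 50 in 3 or more of the 9 libraries were tested. The test was limma 3.58.1 (R 4.3.3) on log2(signal + 5) of the scaled signal, with 1 mean per group. It used an intensity trend, robust moderation and Benjamini-Hochberg adjustment over all genes of a table. Every adjusted p in the text is limma's unless an exact permutation test is named. Pausing was tested on the difference of log2 values of both tables. The procedure was tested on simulated data. Values per library (2 measures) were compared with two-sided exact permutation tests (scipy 1.17.1). Tables and figures used Python 3.11.15, numpy 2.4.6, pandas 2.3.3 and matplotlib 3.10.9.

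The members and lists were chosen with earlier results of these data known, so lists are described by counts and medians without a test. Genes named by rule were the 15 largest rises and falls (protein coding, not overlapping between groups, mean of at least 100 in the higher group), up to 4 called members of each list in each direction, 5 in each direction in the pause region, and a fixed set of cascade, exhaustion and effector genes; 99 further genes were chosen after their values were seen. Some genes that met the rule are not reported here. Alternatives were other scalings, pseudocounts, filters, fits and leaving out each library. Promoters and their motifs come from RefSeq (GRCm38.p6).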

Additional observations from a re-analysis of the deposited data

How the results depend on the processing

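Of 295 called genes named in the text or by the naming rule, 231 kept direction and call in every alternative in which they were tested, which were 18 to 20 for each gene; 114 of these were tested in all 20. Of 740 counts of called list members under the alternatives, 90 moved by more than 1.5 times. Genes called higher in the gene body numbered 720 with no filter on low values and 505 among genes overlapping no other gene; genes called lower numbered 728 and 555 there, and 721 on the deposited scale. The overlap alternative tests fewer genes (5618) and the unfiltered one more (34466); for the deposited scale the cause was not tested. Pause-region calls numbered 110 without intensity trend and robust moderation, 95 among genes overlapping no other gene and 104 to 268 with 1 library left out. Pausing calls numbered 37 with a pseudocount of 50 and 2 with no filter. With 1 library left out, genes called higher in the gene body ranged from 924 to 1667 and lower from 971 to 1300. With all acute libraries left out, 14580 genes were tested in the gene body, and 1354 were called higher and 1442 lower. Of the 295 genes, 42 lost their call without intensity trend and robust moderation, 56 with no filter and 33 on the deposited scale. Among those described above, Dusp4, Ccne2, Cdkn1a, Dlst, Fh1, Hspa9, Ldha, Slc2a1, Timm23, Tnf, Il2ra, Aim2, Icam1, Nfkbiz, Rgs11, Cd4, Trdc, Mknk2, Runx2, Socs2, Pim3, Elf2 and Elk4 lost it under both of the first. Myc, Junb, Tnfrsf14 and H2-D1 lost it only under the first of these, and Acaca, Acly, Hk2, Entpd1, Ets2, Atp5o, Bcl2l2, Sos1, Braf, Maff, Nab1, Ogdh, Larp7 and Rps6ka5 only under the second. Library totals ended the calls of Aim2 and Rgs11, a pseudocount of 0.5 those of Icam1 and Rgs11, the ribosomal RNA-like rows those of Aim2, Rgs11 and Timm23, and leaving out all acute libraries that of Cd4.

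Small differences that were not called changed sign. On the deposited scale Ccnd2 differed by 0.14, Ndufs1 by 0.15, Srebf2 by 0.0779 and Tfam by 0.0788. With the ribosomal RNA-like rows kept, Ccnd2 and Ndufs1 differed by 0.0101 and 0.0195, and scaled by library totals Ndufs1 by 0.0091. With 1 library left out Ccnd2 ranged from -0.0725 to 0.0243, Lag3 from -0.15 to 0.20, Mapk3 from -0.21 to 0.36, Ndufs1 from -0.0338 to 0.0571, Srebf2 from -0.152 to 0.00281 and Eomes from -0.0498 to 0.40.

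Whether replicate numbers pair the samples is not known. Deviations of same-numbered chronic and MEK-inhibited libraries correlated at -0.05, -0.15 and 0.09. Those of acute and MEK-inhibited libraries correlated at -0.36, -0.53 and -0.01, and those of acute and chronic ones at 0.09, 0.10 and 0.07. Deviations are taken from a mean of only 3 libraries, so these values cannot show whether libraries were paired. With the replicate block, 1350 genes were higher and 1352 lower in the gene body, 263 were called in the pause region and none in pausing, and of the genes described Rgs11 and Trdc were not called. RefSeq promoters matched 67.2% of the genes tested, so the check of motif shares over called genes is void. Depth in reads is unknown and limits weak genes most.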

Other observations

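Single genes outside the lists above also differed between MEK-inhibited and chronic libraries; they were chosen after their values were seen, and the groups they belong to were not counted. The host transcript of miR-155, a microRNA of activated lymphocytes, fell: Mir155hg had a gene-body signal of 15559, 16932 and 15856 in chronic, 2513, 2056 and 2571 in MEK-inhibited and 1691, 1538 and 1652 in acute libraries, a difference of -2.76 ± 0.104 (limma adjusted p = 3.25e-12). MEK-inhibited libraries thus lay just above the acute ones and far under the chronic ones. It overlaps another gene on its strand. Pik3cg, encoding the catalytic subunit of PI3-kinase gamma, fell by 2.65, from 5458, 5957 and 5540.1 to 859, 963 and 874. Gem, a small GTPase that inhibits calcium channels, fell by 2.55 and Sytl2, a vesicle-docking protein, by 2.49. Tgfbr1, a receptor chain for transforming growth factor beta, rose by 1.85, from 1301, 1339 and 1283 to 4817, 4663 and 4738, and Mxd1, whose product competes with MYC for their shared partner MAX, by 2.51. The immunity-related GTPase genes Igtp and Irgm2 rose by 1.49 and 1.42.

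Ighm, Ighd and Igha, which encode immunoglobulin constant regions and were likewise chosen after their values were seen, rose. Ighm had 531, 849 and 791 in chronic, 3719, 3216 and 3879 in MEK-inhibited and 5199, 6664 and 6191 in acute libraries, a difference of 2.33 ± 0.154. Ighd and Igha differed by 2.67 and 3.71. The summed signal of the 8 B cell markers ran from 319 to 346 in chronic and from 307 to 586 in MEK-inhibited libraries, 4 of them, among these Ms4a1, Cd79b and Cd22, did not pass the filter, and none of the other 4 was called; their part in the rise was not tested.

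One library held a very high value in a gene that limma did not call: Tnr, encoding a matrix protein of the nervous system, had 99.8, 125 and 109 in chronic and 114, 9357 and 202 in MEK-inhibited libraries.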
